A study of Arabidopsis thaliana with 14 samples.

Results

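The binding sites of ARR14 and of a truncated ARR1 were compared across the 2 deposited peak lists whose summits were richest in the type-B response regulator motif. The compared sites were the highest peaks of the ARR14 list by peak score (−log10 p-value), as many as the whole ARR1∆DDK list holds, and every ARR1∆DDK peak. These were 5832 peaks, taken in equal number from the 9913 ARR14 peaks and from the ARR1∆DDK list, out of 66593 peaks in the 10 lists of the series. The last ARR14 peak taken had a score of 92.94, and the first one left out had the same 92.94. The ARR1∆DDK list ended at a score of 31.21. A score compares peaks within a list, because depth is unknown and each list was scored on its own.

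The ARR14 seedlings were Arabidopsis thaliana Col-0 carrying a recombineered genomic clone with ARR14 under its own regulatory sequences and the yellow fluorescent protein Ypet at the C-terminus. They grew on 10 µM of the cytokinin 6-benzylaminopurine (6-BA) for 72 h and were 3 days old. The ARR1∆DDK seedlings expressed ARR1 without its receiver domain from the 35S promoter, with a fluorescent protein at the N-terminus and the glucocorticoid receptor domain at the C-terminus. They were also 3 days old and received 10 µM dexamethasone (Dex) for 4 h, with no cytokinin named in their labels. The record of this sample carries the line label of tagged full-length ARR1. It was taken as ARR1∆DDK from its title and its Dex treatment. The light label of both samples is long day. The title of the ARR1∆DDK sample ends in a letter e that no label explains, while another title of the series spells out etiolated, so its light condition is uncertain. Whole seedlings were used for chromatin immunoprecipitation and sequencing (ChIP-seq). Factor, promoter, tag, inducing agent, duration and possibly light differ together between the lists and cannot be told apart. Each condition gave 1 list built by the authors from at least 2 replicates, so no spread between replicates could be had. The intervals below are 95% Wilson intervals that cover counting error only.

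Cytokinin is perceived by membrane histidine kinases, which pass a phosphate through phosphotransfer proteins to the nuclear response regulators. The type-B regulators (B-ARRs) are the DNA-binding members, and phosphorylation of their receiver domain relieves its hold on the DNA-binding and activation domains. ARR1∆DDK lacks that domain, and the glucocorticoid receptor fusion keeps it out of the nucleus until Dex is added. The type-A regulators are early targets of B-ARRs and dampen the same pathway.

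The sequences at a few summits are given as examples and do not stand for the lists. The first set holds type-A regulator genes at high rank in both lists, the second holds genes high in the ARR14 list with no ARR1∆DDK peak, and the third holds genes high in the ARR1∆DDK list. All are the plus strand of TAIR10.1 (the RefSeq assembly, with the same nuclear sequence as TAIR10), written 5′ to 3′. Capitals mark a match, on either strand, to the B-ARR-6-BA motif, taken here as AGAT with any base but G at the fifth position and a pyrimidine at the sixth. Windows are 81 bp centred on the summit, or 28 bp around the nearest match where the summit lies in a 5′ UTR.
ARR4, ARR14 summit, chr1:3444783-3444863: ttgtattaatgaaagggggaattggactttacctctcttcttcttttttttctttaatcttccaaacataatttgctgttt
ARR4, ARR1∆DDK summit, chr1:3444714-3444794: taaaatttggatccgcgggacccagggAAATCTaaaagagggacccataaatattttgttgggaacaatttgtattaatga
ARR15, same site for both summits, chr1:28132950-28132977: tgttgttgttaAGATCTtgtgagggtcg
ARR5, same site for both summits, chr3:17760888-17760915: aggattctgagAGATCTttgcATATCTg
WUS, ARR14 summit, chr2:7811150-7811230: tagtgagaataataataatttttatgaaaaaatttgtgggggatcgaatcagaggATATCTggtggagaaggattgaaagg
SAUR28, ARR14 summit, chr3:980689-980769: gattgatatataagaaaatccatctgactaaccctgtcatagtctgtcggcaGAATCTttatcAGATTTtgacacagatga
WOX12, ARR14 summit, chr5:5885834-5885914: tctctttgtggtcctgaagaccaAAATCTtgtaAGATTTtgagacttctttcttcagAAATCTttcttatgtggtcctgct
CMPG2, ARR14 summit, chr5:25843900-25843980: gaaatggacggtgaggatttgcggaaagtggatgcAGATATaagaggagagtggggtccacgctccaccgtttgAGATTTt
CMPG2, ARR1∆DDK summit, chr5:25843940-25844020: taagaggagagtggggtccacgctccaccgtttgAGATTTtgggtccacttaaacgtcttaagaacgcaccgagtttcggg
HAI1, ARR1∆DDK summit site, chr5:23896779-23896806: tctggacgacgAAATCTtgaccgttgat
HMGB4, ARR1∆DDK summit, chr2:7643766-7643846: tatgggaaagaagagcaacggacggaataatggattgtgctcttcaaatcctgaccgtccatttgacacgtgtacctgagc
The ARR4 summits stood 69 bp apart, and only the ARR1∆DDK window held a match. At ARR15 and ARR5 the nearest match was the same 6 bases for both summits. The WOX12 window held 3 matches, and the HMGB4 window held 0 but carried 1 CACGTG. Windows not printed here, at SAUR15 (ARR14 rank 16), at both ARR9 summits and at the ARR1∆DDK summit of CLV3, also held 0 matches.

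Peaks with ARR14 and ARR1∆DDK overlapped for about the same share of each list. Of the ARR14 peaks, 1506 overlapped an ARR1∆DDK peak by at least 1 bp (51.6%, interval 49.8 to 53.5%). Of the ARR1∆DDK peaks, 1603 overlapped 1 of the compared ARR14 peaks (55.0%, interval 53.2 to 56.8%). The ARR14 peaks were wider, with a median of 1482.5 bp, against 883 bp for ARR1∆DDK peaks. The counts differ because 97 ARR14 peaks covered 2 or more ARR1∆DDK peaks, while 5 ARR1∆DDK peaks covered 2 or more ARR14 peaks. With a reciprocal overlap of at least 50% the shared share was 34.2% of each list.

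Sharing depended on rank, and more steeply in the ARR1∆DDK list. Of the 100 highest ARR14 peaks, 82 were shared, and of the 100 highest ARR1∆DDK peaks, all 100 were. Among the 500 highest, 69.2% of ARR14 peaks (interval 65.0 to 73.1%) and 88.0% of ARR1∆DDK peaks were shared. In the lowest-ranked bin the shares were 40.4% for ARR14 and 32.5% for ARR1∆DDK. High ARR14 peaks thus lacked a partner more often than high ARR1∆DDK peaks did, by 154 to 60 among the 500 highest.

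**Figure D1:**
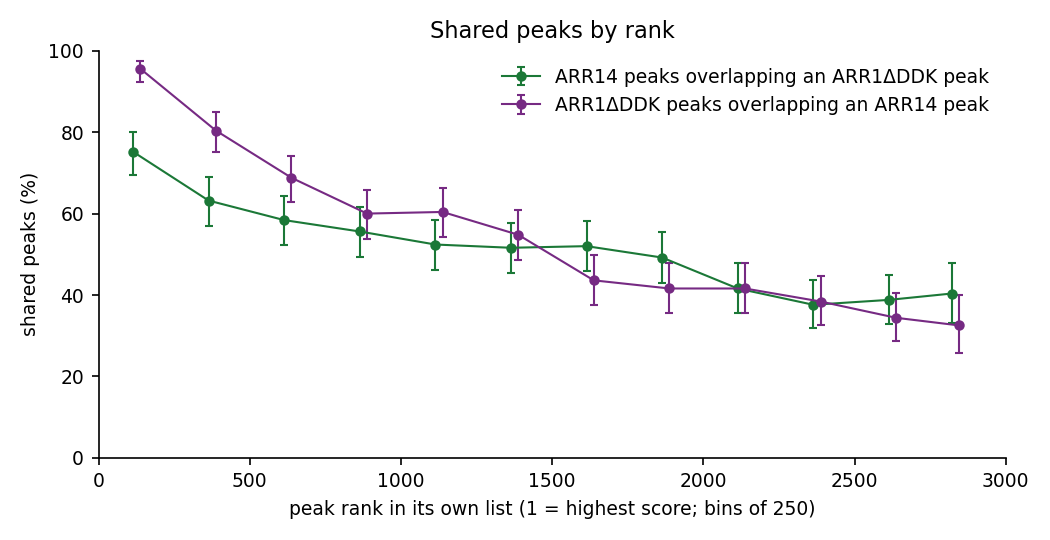
Share of peaks (%) that overlap a top peak of the other list, by rank in their own list, in bins of 250 peaks (the last bin is smaller), for ARR14 (green) and ARR1∆DDK (purple). Bars are 95% Wilson intervals. In the highest bin 75.2% of ARR14 peaks and 95.6% of ARR1∆DDK peaks were shared.

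Most ARR1∆DDK peaks without a partner had one further down the ARR14 list. Among the 1313 ARR1∆DDK-only peaks, 1105 (84.2%) overlapped an ARR14 peak ranked too low to be compared, at a median ARR14 rank of 4843 (quartiles 3768 and 6477). The other 208, or 7.13% of the ARR1∆DDK list, overlapped no deposited ARR14 peak. The same look in the other direction was not possible, since the ARR1∆DDK list has no further peaks. For the 1410 ARR14-only peaks, a weaker ARR1∆DDK signal below the authors' threshold and no binding at all cannot be told apart here.

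Where both lists had a peak, their summits mostly stood close together. Over 1504 mutually closest pairs the median distance was 32 bp (quartiles 15 and 65.25 bp), and 1001 pairs (66.6%, interval 64.1 to 68.9%) lay within 50 bp. Within 250 bp lay 1365 pairs, 90.8% of them. The ARR1∆DDK summit lay downstream of the ARR14 summit, along the strand of the nearest gene, in 788 pairs and upstream in 705, with a median offset of 4 bp. Distances were longer under wide ARR14 peaks, with a median of 23 bp for ARR14 peaks up to 1 kb, 32 bp for 1 to 2 kb and 41 bp above 2 kb. Of the 139 pairs over 250 bp apart, 102 had an ARR14 peak over 2 kb wide. Scores in the pairs were loosely related (Spearman's rho of 0.33 across the 1504 pairs, which are sites and not replicates).

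**Figure D2:**
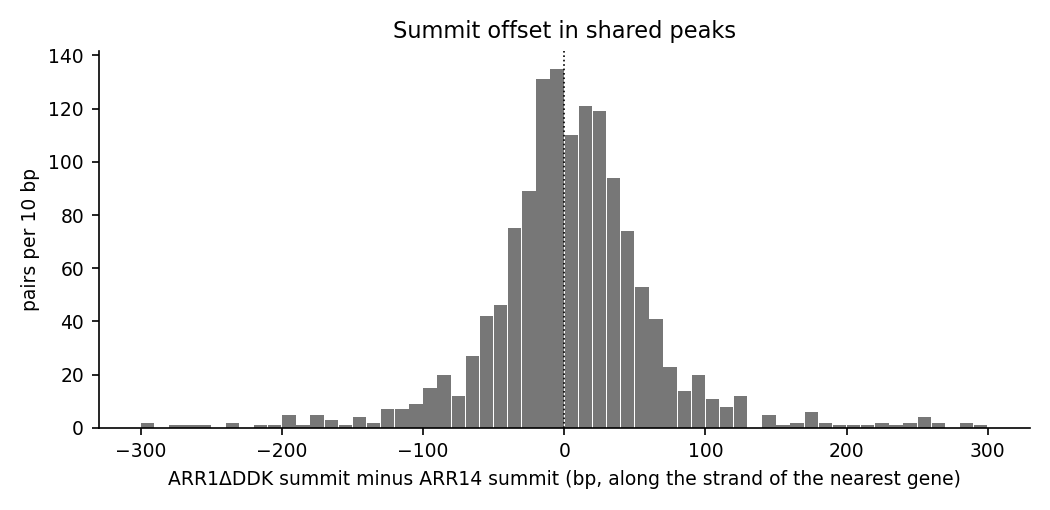
Number of shared pairs per 10 bp (vertical axis) by ARR1∆DDK summit minus ARR14 summit in bp, along the strand of the gene nearest the ARR14 summit. The offsets centre near 0, with a median of 4 bp, and 139 of 1504 pairs were more than 250 bp apart.

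The 10 shared pairs that ranked highest in both lists included cytokinin and clock genes. ARR4, a type-A regulator, had the ARR14 peak placed at rank 1 (score 280.72, tied with ARR15) and an ARR1∆DDK peak at rank 41 (187.88). ARR9, another type-A regulator, had its peaks at ARR14 rank 27 and ARR1∆DDK rank 43, with summits 11 bp apart. GI, a clock component, was at ARR14 rank 36 (270.31) and ARR1∆DDK rank 4 (252.44), with summits 4 bp apart and the ARR14 one 901 bp upstream of the transcription start site (TSS). The peak in the 5′ UTR of UBC16, a ubiquitin-conjugating enzyme gene, was at ARR14 rank 13 and ARR1∆DDK rank 8. It also lay within 1.5 kb of the 3′ end of CKX5, which encodes a cytokinin oxidase that degrades the hormone. The ARR14 summit was 4858 bp downstream of the CKX5 TSS. A separate ARR14 peak, at rank 69, had its summit 656 bp upstream of that TSS. The other 6 pairs were nearest to ACR8, NAC083, AT4G03600, AT1G49500, AT5G67411 and AT4G14230.

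Other shared peaks held very different places. GAE4, a pectin precursor enzyme gene, was at ARR14 rank 237 and ARR1∆DDK rank 2838, with summits 21 bp apart. GLY3, a glyoxalase gene, was at ARR14 rank 416 and was the lowest-ranked ARR1∆DDK peak. BES1, a brassinosteroid response factor, had its ARR14 summit (rank 375) 1238 bp upstream of the TSS and its ARR1∆DDK summit (rank 2897) 69 bp downstream of it. In the other direction, the protein kinase gene APK2B was at ARR14 rank 2732 and ARR1∆DDK rank 280, with summits 18 bp apart at the TSS. The kinase gene ATSIK was at ARR14 rank 2719 and ARR1∆DDK rank 259. The remaining pairs with the 5 largest rank differences in each direction were nearest to AT5G04605 and AT5G19250, higher with ARR14, and to AT2G44430, AT3G07945 and EDA12, higher with ARR1∆DDK.

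Summits lay close to TSSs most often in ARR1∆DDK-only peaks and least often in ARR14-only peaks. Within 250 bp of a TSS were 33.5% of ARR14-only summits (interval 31.1 to 36.0%) and 56.9% of ARR1∆DDK-only summits (interval 54.2 to 59.5%). The shared peaks lay between, at 45.5% by their ARR14 summits and 46.7% by their ARR1∆DDK summits. Of all nuclear bases, 15.0% are that close to a TSS. The median distance to the nearest TSS was 718 bp for ARR14-only summits and 190 bp for ARR1∆DDK-only summits. Within the ARR1∆DDK-only peaks, the share was 60.5% for those over a lower ARR14 peak and 38.0% (interval 31.7 to 44.7%) for the 208 with no ARR14 peak.

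**Figure D3:**
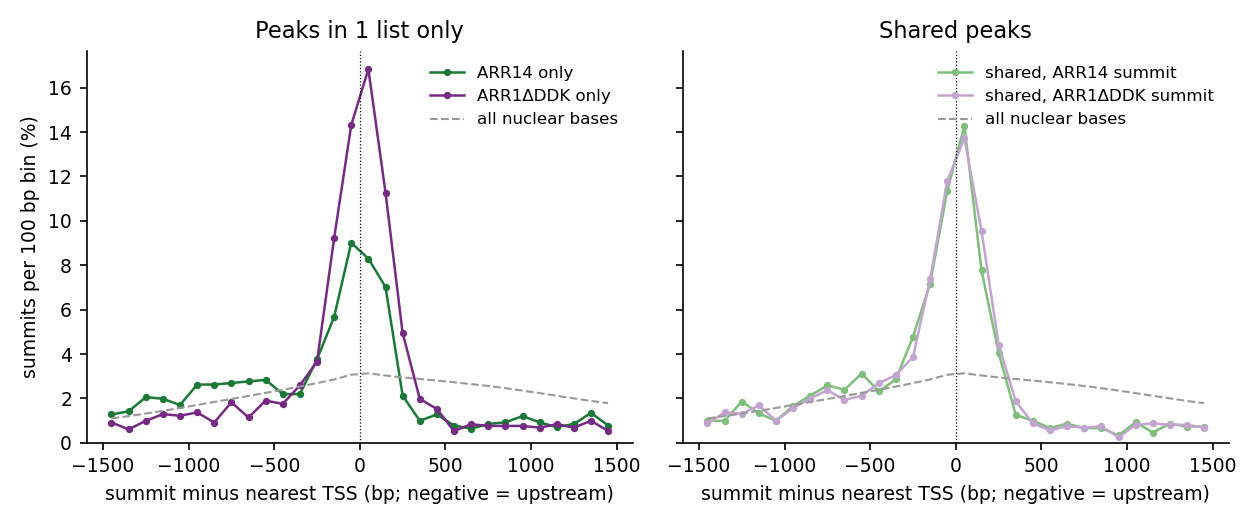
Share of summits (%) per 100 bp by distance to the nearest TSS in bp (negative is upstream), for peaks in 1 list only (left) and shared peaks (right), with all nuclear bases dashed. Within 250 bp of a TSS were 33.5% of ARR14-only and 56.9% of ARR1∆DDK-only summits, and the curves of the shared peaks nearly coincide.

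The annotation at the summits showed the same order. Summits in a 5′ UTR made up 16.7% of ARR14-only and 28.3% of ARR1∆DDK-only peaks, and those in coding sequence 3.19% of ARR14-only and 12.1% of ARR1∆DDK-only peaks. ARR14-only summits were more often downstream of a gene end, in 22.3% against 11.2% of ARR1∆DDK-only summits. They were also more often in a 3′ UTR, in 8.72% against 2.74%, and in an intron, in 6.74% against 1.52%. Upstream summits differed less, at 30.1% of ARR14-only and 34.8% of ARR1∆DDK-only peaks. The interval around each of these shares excluded the other list's value. Of all nuclear bases, 4.91% are in a 5′ UTR, 28.3% in coding sequence, 15.6% in an intron and 5.74% in a 3′ UTR. Both groups were thus below all nuclear bases in coding sequence and introns, and above them in 5′ UTRs.

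The B-ARR-6-BA motif, the short core recognised by type-B regulators, was counted in 200 bp at each summit on both strands. Because the lists were picked for motif-rich summits, these shares describe the lists. A match was present at 89.5% of ARR14-only summits (interval 87.8 to 91.0%) and 79.2% of ARR1∆DDK-only summits (interval 76.9 to 81.3%). Shared peaks had one in 90.4% by the ARR14 summit and 87.0% by the ARR1∆DDK summit. Of all consecutive 200 bp nuclear windows, 59.4% hold a match, and of 200 bp windows at every TSS, 57.7%. The mean number of matches was 1.85 in ARR14-only and 1.46 in ARR1∆DDK-only windows, against 0.927 in nuclear windows. Among the 6 spellings, AGATTC and AGATAT differed most in percentage points. AGATTC was in 33.0% of ARR14-only and 23.4% of ARR1∆DDK-only windows, against 15.8% of nuclear windows, and AGATAT in 29.0% and 19.4%, against 17.3%.

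Some other short motifs differed between the lists by a larger ratio. CACGTG, the core of the G-box bound by bZIP and bHLH factors, was in 10.8% of ARR14-only windows (interval 9.27 to 12.5%) and 24.5% of ARR1∆DDK-only windows (interval 22.3 to 26.9%), against 2.19% of nuclear windows and 4.82% of TSS windows. In shared peaks it was in 22.6% by the ARR14 summit and 24.5% by the ARR1∆DDK summit. TGGGCC, a site bound by TCP factors, was in 8.72% of ARR14-only and 15.0% of ARR1∆DDK-only windows, against 3.05% of nuclear and 9.66% of TSS windows. TGTCTC, a site bound by auxin response factors, went the other way, with 17.7% of ARR14-only and 9.98% of ARR1∆DDK-only windows, against 10.7% of nuclear windows. GAGAGA and the telobox-like AACCCTA were close, at 27.7% and 4.04% of ARR14-only windows and 28.6% and 4.49% of ARR1∆DDK-only windows. Nuclear windows held them in 17.1% and 4.20%, and TSS windows in 27.9% and 7.99%. Among ARR1∆DDK-only peaks over a lower ARR14 peak, CACGTG was in 26.8% of windows and TGGGCC in 17.0%. Of the 208 with no ARR14 peak, 12.5% held CACGTG (interval 8.67 to 17.7%) and 4.33% held TGGGCC.

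The next 4 motifs were chosen after their counts were seen. GGACCA was in 22.4% of ARR14-only and 6.40% of ARR1∆DDK-only windows (nuclear windows, 5.29%), and both copies in the WOX12 window above read tggtcc on the plus strand. CACATG was in 24.7% of ARR14-only and 9.29% of ARR1∆DDK-only windows (nuclear windows, 9.19%). CCGCCG was in 0.993% of ARR14-only and 9.98% of ARR1∆DDK-only windows (nuclear windows, 2.47%). CGTGGC, whose first 4 letters can be the last 4 of CACGTG, was in 4.18% of ARR14-only and 19.3% of ARR1∆DDK-only windows (nuclear windows, 2.48%). In the 208 ARR1∆DDK-only peaks with no ARR14 peak, CGTGGC was in 8.17% and CCGCCG in 13.5%, while GGACCA and CACATG were each in 4.81%. The G and C content of the windows moved with these shares, at 35.1% for ARR14-only and 40.9% for ARR1∆DDK-only windows (nuclear windows, 36.0%). Its part in the motif shares was not tested, and a match to a short motif is a description, not a bound site.

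Each of the other 8 lists of the series, which did not enter the choice of peaks, held shared peaks more often than ARR14-only or ARR1∆DDK-only peaks. Shared peaks overlapped the ARR1 list after 4 h of 6-BA in 92.7% by their ARR14 peaks and 92.0% by their ARR1∆DDK peaks, while ARR14-only and ARR1∆DDK-only peaks did so in 67.3% and 68.4%. In the ARR1 list after 3 days of 6-BA, which shares its treatment with ARR14, 95.9% of ARR14-only peaks (interval 94.7 to 96.8%) and 85.7% of ARR1∆DDK-only peaks (interval 83.7 to 87.5%) had an overlapping peak. The order was the same in the ARR10 6-BA list, with 76.0% of ARR14-only and 69.2% of ARR1∆DDK-only peaks. It turned in the ARR1 list after 4 h of 6-BA (67.3% and 68.4%) and in the ARR1 mock list (13.1% and 16.6%). It also turned in the ARR10 mock list (74.8% and 77.5%) and the list labelled ARR12 mock (52.6% and 53.5%). In each list where it turned, the intervals of the ARR14-only and ARR1∆DDK-only shares overlapped. The gap was wider in the ARR1 list from etiolated mock seedlings. That list held 5.60% of ARR14-only peaks (interval 4.52 to 6.93%) and 20.6% of ARR1∆DDK-only peaks (interval 18.5 to 22.9%). Whether the uncertain light condition of the ARR1∆DDK seedlings has a part in this was not tested. The list labelled ARR12 6-BA likewise covered 15.0% of ARR14-only and 40.0% of ARR1∆DDK-only peaks. That list held 58.2% of the 208 ARR1∆DDK-only peaks with no ARR14 peak (interval 51.4 to 64.7%), against 54.0% of shared ARR1∆DDK peaks (interval 51.5 to 56.4%). Of the 208, 28 (13.5%) were in none of the 8 lists.

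**Figure D4:**
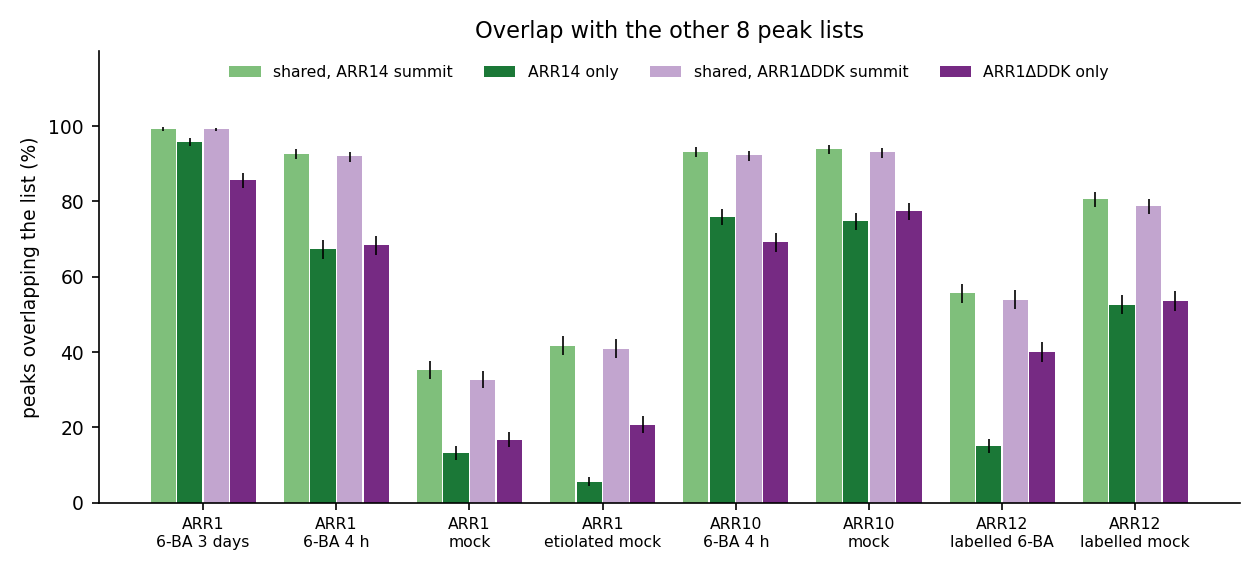
Share of peaks (%) overlapping each of the other 8 lists, for shared ARR14, ARR14-only, shared ARR1∆DDK and ARR1∆DDK-only peaks, with 95% Wilson intervals. ARR14-only peaks reach 95.9% in the ARR1 list after 3 days of 6-BA and 5.60% in the etiolated mock list.

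Target genes were those with a summit anywhere from 1.5 kb before their start to 1.5 kb past their end. For ARR14 and ARR1∆DDK, only summits of the compared peaks counted, unless stated. ARR14 had 4633 such target genes, 12.2% of 37899 nuclear genes and pseudogenes, and ARR1∆DDK had 4687 (12.4%). Both factors had 2533 of them (6.68% of all genes), which was 54.7% of ARR14 targets and 54.0% of ARR1∆DDK targets. ARR14 alone had 2100 (5.54%), and ARR1∆DDK alone had 2154 (5.68%). A summit between close genes counts for each of them, so neighbours share a peak.

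The cytokinin genes were targets of both factors to a varying degree. All 10 type-A regulator genes (100%) were targets of both, at a median rank of 24.5 in ARR14 and 89 in ARR1∆DDK, where all targets had medians of 1419 and 1440. ARR15 was at ARR14 rank 2 (280.72) and ARR1∆DDK rank 83 (164.3), with summits 70 and 72 bp into the gene. ARR5 was at ARR14 rank 309 (221.03) and ARR1∆DDK rank 7 (225.52), and ARR7 at ARR14 rank 361 (213.69) and ARR1∆DDK rank 20 (205.44). ARR17 was the lowest in the ARR14 list (rank 1933) and at rank 889 in ARR1∆DDK, while ARR3 was the lowest in ARR1∆DDK (rank 1371) and at rank 549 in ARR14. The ARR3 ranks belong to summits at different positions, 2560 bp (ARR14) and 1329 bp (ARR1∆DDK) downstream of the TSS. The same held at ARR6, with summits 1059 bp (ARR14) and 130 bp (ARR1∆DDK) downstream. The type-A genes thus ranked high with both factors, though not in the same order.

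Upstream parts of the pathway were bound less evenly. Among the 11 type-B genes, 3 were ARR14 targets (ARR12, ARR14 and ARR18, of which ARR14, at rank 1920, is the tagged gene itself) and 2 were ARR1∆DDK targets (ARR18 and ARR20). These were 27.3% and 18.2% of the type-B genes, against 12.2% and 12.4% of all genes. Of the 9 receptor and phosphotransfer genes, 4 were ARR14 targets and 3 were ARR1∆DDK targets. AHK4, a cytokinin receptor gene, was at ARR14 rank 46 (268.02) and ARR1∆DDK rank 131 (139.55), with summits 7 bp apart inside the gene. AHK4 lies within 50 kb of ARR14, the gene carried on the tagged clone, where 38.6% of bases were under a deposited ARR14 peak, against 10.9% of all nuclear bases. ARR1∆DDK peaks covered 2.31% of the same stretch, against 2.65% of all nuclear bases. The receptor peak was present in both lists, and the part of the tagged clone in its ARR14 score was not tested. The highest peak within 50 kb of ARR1 was nearest to AT3G03375, at ARR14 rank 163 and ARR1∆DDK rank 87.

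Synthesis and breakdown genes differed from each other. Of 20 synthesis and activation genes, 3 (15%) were targets of each factor, close to the background of all genes. LOG2, an activating enzyme gene, was at ARR14 rank 740 and ARR1∆DDK rank 506, and LOG9 at ARR14 rank 2834 and ARR1∆DDK rank 2218. Of 10 breakdown and conjugation genes, 6 were ARR14 targets and 5 were ARR1∆DDK targets. CKX6, a cytokinin oxidase gene, had an ARR14 peak at rank 570 (190.42) and no ARR1∆DDK peak, and UGT76C2, a cytokinin glucosyltransferase gene, was at ARR14 rank 32 and ARR1∆DDK rank 849. Of the 6 cytokinin response factor genes, 4 were ARR14 targets and 5 were ARR1∆DDK targets, and CRF6 had its ARR14 peak at rank 3009 and its ARR1∆DDK peak at rank 274. CRF2 was at ARR14 rank 590 and ARR1∆DDK rank 178, with summits 1 bp apart in the coding sequence.

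Genes of other hormones and of the clock were also compared. Of 18 abscisic acid receptor and PP2C phosphatase genes, 7 were ARR14 targets and 10 were ARR1∆DDK targets, with 4 in common. The phosphatase gene HAI1 was at ARR14 rank 4730 and ARR1∆DDK rank 159, while HAI3 was at ARR14 rank 2634 and had no ARR1∆DDK peak. Of 29 Aux/IAA auxin repressor genes, 12 were ARR14 targets and 10 were ARR1∆DDK targets, and IAA16 was at ARR14 rank 106 and ARR1∆DDK rank 104. Of 12 JAZ jasmonate repressor genes, 7 were ARR14 targets and 6 were ARR1∆DDK targets, with JAZ9 at ARR14 rank 495 and no ARR1∆DDK peak. Of 12 clock genes, 8 were ARR14 targets and 10 were ARR1∆DDK targets. Counting every deposited ARR14 peak, 17 of the abscisic acid genes, 23 Aux/IAA, 9 JAZ and 11 clock genes had one. Many genes that were not ARR14 targets thus had a lower-ranked ARR14 peak. The ARR1∆DDK list has no lower peaks to count. The clock repressor PRR9 was at ARR14 rank 390 and ARR1∆DDK rank 23, PRR7 at ARR14 rank 933 and ARR1∆DDK rank 44, and the evening complex gene LUX at ARR14 rank 360 and ARR1∆DDK rank 38.

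The smaller groups were as follows. Of 11 ethylene signalling genes, the same 2 (18.2%) were targets of both, near the 12.2% and 12.4% of all genes. They were the F-box gene EBF1 (ARR14 rank 21, ARR1∆DDK rank 118) and the kinase gene CTR1 (ARR14 rank 571, ARR1∆DDK rank 287). At both genes the summits of both lists lay past the 3′ end. Of 20 auxin transport and conjugation genes, 4 were ARR14 targets and 7 were ARR1∆DDK targets, and the influx carrier gene LAX2 was at ARR14 rank 1183 and ARR1∆DDK rank 34. Of 16 light signalling genes, 6 were ARR14 targets and 9 were ARR1∆DDK targets. The photoreceptor gene PHYA had an ARR1∆DDK peak at rank 720 and no ARR14 peak, and GNC, a GATA factor of greening, had an ARR14 peak at rank 401 and no ARR1∆DDK peak. Of 8 gibberellin signalling genes, 3 were ARR14 targets and 2 were ARR1∆DDK targets, and of 10 heat and stress genes, 3 were targets of each. Counting every deposited ARR14 peak, 7 ethylene, 15 auxin transport and conjugation and 12 light signalling genes had one. So did all 8 gibberellin genes and 7 heat and stress genes.

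**Figure D5:**
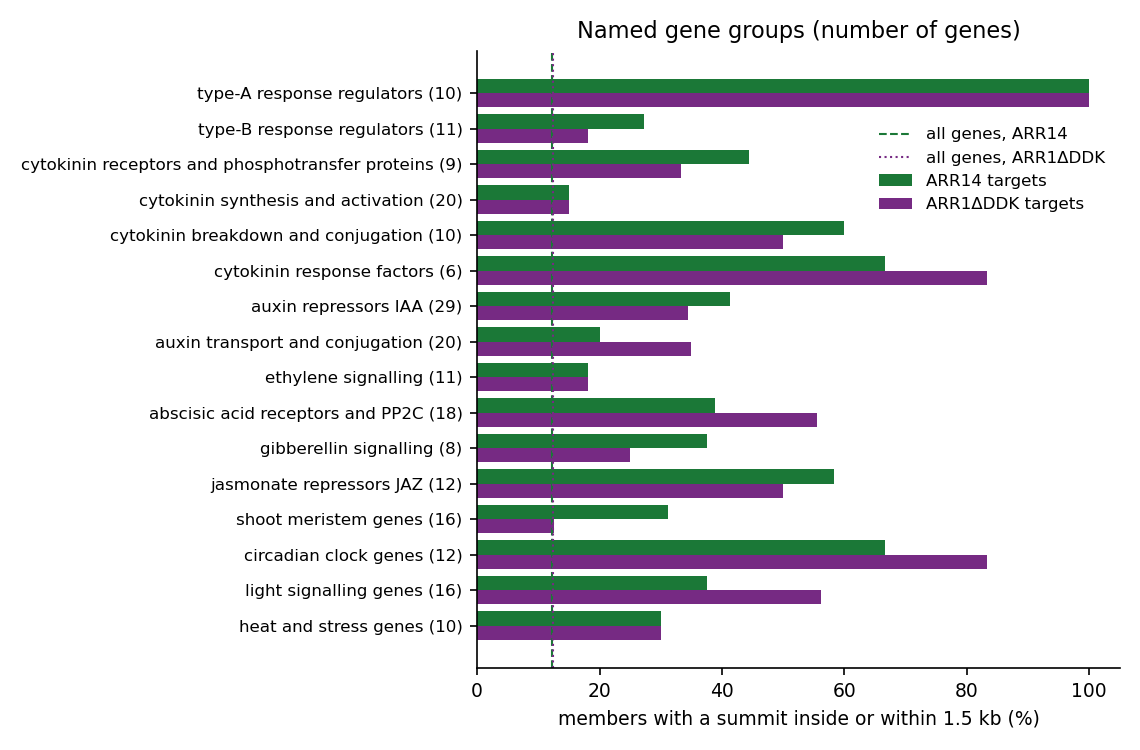
Share of each named gene group (%, group size in brackets) that were ARR14 targets (green, upper bars) or ARR1∆DDK targets (purple, lower bars), with the shares of all genes, 12.2% and 12.4%, as vertical lines. All 10 type-A regulator genes were targets of both, and cytokinin synthesis genes were near the share of all genes.

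The shoot meristem genes had 5 ARR14 targets (31.25%) and 2 ARR1∆DDK targets (12.5%) among 16. Of all genes, 12.2% were ARR14 targets and 12.4% were ARR1∆DDK targets, so the ARR1∆DDK share was near that of all genes. Counting every deposited ARR14 peak, 10 of the 16 had one. WUS, the homeobox gene that maintains shoot stem cells, had an ARR14 peak at rank 128 (score 248.68, enrichment 12.87) and no listed ARR1∆DDK peak. The ARR14 summit was at chr2:7811190, 379 bp upstream of the TSS. A weaker ARR1∆DDK signal at WUS and no binding cannot be told apart from the list. The paper's read tracks at the WUS promoter include Dex-treated ARR1∆DDK plants, among the samples it marks for increased binding. The WUS upstream region also held a peak in the ARR1 list after 3 days of 6-BA (rank 893 of 10904, score 72.69). After 4 h of 6-BA it held one at rank 4264 of 7846 (16.72), and the ARR1 mock and etiolated mock lists held none there. The ARR10 lists held one at rank 4279 of 8680 (21.25) with 6-BA and at rank 10412 of 11499 (7.51) with mock treatment. The list labelled ARR12 mock held one at rank 5102 of 6005 (16.14), and the list labelled ARR12 6-BA held none. The lists end at different scores, such as 9.85 for ARR1 after 4 h of 6-BA and 6.72 for ARR10 mock, against 31.21 for ARR1∆DDK. Presence of a weak WUS peak therefore depends on where a list ends. CUC3, a boundary gene, was at ARR14 rank 422 with no ARR1∆DDK peak. CLV3, which encodes the stem cell signal peptide, had the reverse, with an ARR1∆DDK summit at rank 742 that lay 1067 bp upstream of its TSS. No ARR14 peak overlapped that CLV3 peak, and the highest ARR14 peak assigned to CLV3 was at rank 6855, with its summit 2300 bp downstream of the TSS. Of the other 8 lists, only the ARR1 list after 3 days of 6-BA overlapped the ARR1∆DDK peak at CLV3. The paper reports that it did not find CLV3 among the targets of the B-ARRs it tested.

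Genes ranked high in the ARR14 list only were more numerous than those ranked high in the ARR1∆DDK list only. The 500 highest ARR14 peaks had 795 genes, of which 238 (0.628% of all genes) had no ARR1∆DDK peak. The 500 highest ARR1∆DDK peaks had 831 genes, of which 111 (0.293% of all genes) had none of the compared ARR14 peaks. When every deposited ARR14 peak was counted, 15 of the 111 were left, and the other 96 had an ARR14 peak at a median rank of 3987. Among the 15, named after their values were seen, were ERF4, an ethylene response repressor, ICL, the isocitrate lyase gene, and WIP2, a zinc finger gene. Of the 238 ARR14 genes, 234 (98.3%) were targets in the ARR1 list after 3 days of 6-BA, as were 104 of the 111 ARR1∆DDK genes (93.7%), against 40.2% of all genes. These shares were near the 98.6% of all genes at the 500 highest ARR14 peaks and the 97.7% of all genes at the 500 highest ARR1∆DDK peaks. In the etiolated ARR1 list, 7 of the 238 (2.94%) and 61 of the 111 (55.0%) were targets, against 5.65% of all genes. All genes at the 500 highest ARR14 peaks were targets there in 35.8% and all genes at the 500 highest ARR1∆DDK peaks in 59.3%.

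The 12 highest ARR14 peaks without an ARR1∆DDK peak included 2 at auxin-induced SAUR genes and 2 at homeobox genes. The highest, at rank 8 (score 277.24), was nearest to AT3G54730. SAUR15 (rank 16, 276.08) and SAUR28 (rank 37, 270.31) belong to the small auxin up RNA family, known for roles in cell expansion, with summits 172 and 167 bp upstream of their TSSs. The summit at HB4 (rank 45), a homeobox gene of the shade response, was in an intron, and that at WOX12 (rank 66), a homeobox gene of root founder cells, was 1104 bp upstream. DELTA-TIP, a vacuolar water channel gene, was at rank 79. The other 6 of the 12 highest were nearest to AT5G22930, AT1G21580, AT3G13700, AT3G61825, AT1G04687 and AT1G05373. All 12 overlapped a peak of both ARR1 lists from 6-BA treated seedlings and of both ARR10 lists, and none overlapped the etiolated ARR1 list. Over all 1410 ARR14-only peaks the shares were 95.9% and 67.3% for the ARR1 lists after 3 days and 4 h of 6-BA, 76.0% and 74.8% for the ARR10 6-BA and mock lists, and 5.60% for the etiolated list.

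The highest ARR1∆DDK-only peaks began at rank 108 and mostly had a lower ARR14 peak. The first, at AT5G55790 (rank 108, score 149.41), overlapped an ARR14 peak at rank 3428 (83.02). HAI1 (rank 159), ARGOS (rank 162), an organ size gene, and CMPG2 (rank 170), a ubiquitin ligase gene, overlapped ARR14 peaks at ranks 4730, 3733 and 3545. HMGB4 (rank 229), a high mobility group protein gene, overlapped an ARR14 peak at rank 5900. Only the peak nearest to AT3G00940 (rank 234) among the 12 highest overlapped no deposited ARR14 peak. The other 6 were nearest to AT1G11660, AT4G31450, AT3G54500, AT1G64050, AT1G08653 and AT1G20030. Among peaks with no ARR14 peak at all, those after AT3G00940 were nearest to AT1G62660 (rank 330), AT3G21710 (rank 403) and the lipase-like gene GLL22 (rank 452).

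A few gene families were picked after the values were seen. Beside them, 12.2% of all genes were ARR14 targets and 12.4% were ARR1∆DDK targets. Of 80 SAUR genes, as named in the annotation, 27 (33.75%) were ARR14 targets and 9 (11.25%) were ARR1∆DDK targets, with 5 in common. The ARR1∆DDK share was near that of all genes. SAUR genes stand in tandem arrays and share peaks, so the 27 are fewer independent sites. Of 11 YUCCA genes, which encode auxin synthesis enzymes, 6 were ARR14 targets at ranks of 882 (YUC4) to 2682 (YUC2), and 0 were ARR1∆DDK targets. With only 11 genes, 0 cannot be told apart from the 12.4% of all genes. Of 71 WRKY genes, 14 were ARR14 targets and 17 were ARR1∆DDK targets, with 8 in common. Of 30 BBX genes, zinc finger factors of light and clock responses, 18 were ARR14 targets and 16 were ARR1∆DDK targets, with 15 in common, and BBX28 was at ARR14 rank 777 and ARR1∆DDK rank 3. Of 23 expansin EXPA genes, 6 were ARR14 targets and 5 were ARR1∆DDK targets.

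The widest peaks were unlike the others. The widest ARR14 peak, of 9845 bp, covered HEC1 and RALFL34 at rank 181. The widest ARR1∆DDK peak, of 20000 bp at chr1:15115576-15135575, ranked 2512 with a score of 34.73 and held no annotated gene. Among the 208 ARR1∆DDK peaks with no ARR14 peak, 20 were wider than 3 kb, against 10 of the 1105 with a lower ARR14 peak.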

How the data were processed

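The members and the gene lists were chosen with earlier results of these data known. The authors aligned reads with Bowtie 0.12.7, called peaks against input with MACS2 2.0.10 and combined replicates by IDR, with TAIR10 named as the build. The deposited lists give a score (10 times −log10 p), a fold enrichment over input (a ratio), the −log10 p-value used here as peak score, and position columns. Peaks were ranked by −log10 p, ties by fold enrichment and then by position. Depth is unknown because the lists hold no read counts. Overlap was at least 1 bp. TSSs and genes were those of RefSeq TAIR10.1 (37899 nuclear genes and pseudogenes, 27444 protein-coding). The genes named were the 10 best shared pairs by the worse rank, the 12 highest peaks of each list without a partner, the 5 largest rank differences in each direction, and members of named gene groups. Motifs were counted on both strands. The overlap and assignment steps were tested on simulated data. The 2 control libraries and 2 RNA-seq records were not used here. Python 3.11.15, NumPy 2.4.6, pandas 2.3.3 and SciPy 1.17.1 were used.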

Additional observations from a re-analysis of the deposited data

How the results depend on the processing

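No paired analysis was possible because the authors deposited 1 merged list per condition. Of 57 alternative values, 13 stayed within the interval of the reported value, or within 1.5 times of a count. These included ranking by fold enrichment and leaving out peaks within 50 kb of ARR14 or ARR1. The share of shared peaks (ARR14, then ARR1∆DDK) was 34.2% and 34.2% with a reciprocal overlap of 50%, 43.3% and 43.3% with summits within 100 bp, 46.8% and 46.8% within 250 bp, 26.5% and 92.9% with every deposited peak or with −log10 p of at least 16, 39.4% and 40.2% in the top 1000, and 39.5% and 15.8% without peaks wider than 1 kb. The last 2 rules leave fewer peaks to overlap. The median summit distance was 29 bp in the top 1000 and 23 bp without peaks wider than 1 kb.

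The share of summits near a TSS kept its order in each alternative. For shared ARR14, ARR14-only, shared ARR1∆DDK and ARR1∆DDK-only summits it was 41.1%, 29.8%, 42.0% and 52.6% with protein-coding TSSs, 56.8%, 42.6%, 59.2% and 68.1% within 500 bp, and 40.4%, 28.9%, 41.5% and 56.2% in the top 1000. The share of windows holding the motif, for the same groups in turn, was 77.1%, 78.1%, 67.8% and 56.5% in 100 bp, 98.1%, 97.9%, 97.0% and 93.6% with the core AGAT, and 93.4%, 93.9%, 91.0% and 84.9% in the top 1000. Shared ARR14 summits were above ARR14-only summits in 200 bp and below them in 100 bp and in the top 1000.

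Genes ranked high in 1 list only numbered 94 for ARR14 and 26 for ARR1∆DDK at the 250 highest peaks, and 15 for ARR1∆DDK against every deposited ARR14 peak. Taking the nearest gene only gave 2812 ARR14 and 2759 ARR1∆DDK target genes. Without replicates or read counts, differences between the lists carry no biological error.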
